A study of Mus musculus with 6 samples.

Results

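Elastic fibres give the lung its recoil, and 10 genes that encode their building blocks were followed here in whole lungs of mouse embryos: Eln, Fbn1, Fbn2, Lox, Loxl1, Fbln1, Fbln5, Mfap2, Mfap4 and Mfap5. The members were chosen by gene symbol, as every non-control array probe whose accession maps to 1 of these symbols in RefSeq. That gave 12 probes for 9 of the 10 genes, out of 41174 probes in all. No probe was named as Lox through RefSeq, so Lox was not analysed here. All 12 probes lay well above background on all 6 arrays, so all 9 genes entered the comparison of 19862 features. None of the 10 genes lies on chromosome 16, which carries Dppa2.

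An elastic fibre has a core of elastin, the product of Eln, laid on a scaffold of microfibrils that are built from fibrillins. Lysyl oxidases, which use copper, cross-link the secreted elastin monomers, and fibulins and microfibril-associated glycoproteins link the core, the scaffold and the cell surface. In the lung the fibres lie in vessel walls, around airways and, as alveoli form, in the edges of the growing septa, where they are laid down mainly by myofibroblasts.

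The study compared lungs of 3 embryos that lack ECAT15-2, the gene Dppa2, with lungs of 3 wild type embryos of the same late fetal stage (E18.5), with 1 array per embryo. The 3 knockout (KO) embryos carried 15-1Flox/Flox and 15-2-/-, so a floxed ECAT15-1 (Dppa4) allele accompanied the null allele in all of them. The 3 wild type (WT) embryos carried 15-1+/+ and 15-2+/+. Per the labels, both groups came from crosses of parents with 1 floxed ECAT15-1 allele and 1 null ECAT15-2 allele. The background in the labels was mixed: 129Sv embryonic stem cells, matings to C57/BL6, and 1 mating to transgenic mice (Cre or FLPe) whose strain is not known. The labels name neither sex nor litter, and p-values measure the spread between these embryos only.

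The arrays were similar in brightness, with 63.3% to 68.8% of the probes well above background on KO arrays and 66.1% to 66.6% on WT arrays, and with no saturated spot. KO 3, WT 1 and WT 2 shared a slide, KO 1 and KO 2 another, and WT 3 was on a slide without other arrays of the series, so that slide and genotype overlapped in part. Probes for Ddx3y, Eif2s3y, Kdm5d and Uty, which are Y-linked, were above background on WT 1 and WT 2 and on no other array, and the Xist probes were above it on the other 4. Dppa2 had log2 levels of -4.94, -4.98 and -4.07 in KO lungs, against -3.24, -3.52 and -3.57 in WT lungs. All KO lungs were below all WT lungs, at a limma adjusted p of 0.0605. Where this probe lies relative to the deletion is not given in the sources used here. The lung epithelial markers Nkx2-1 and Sftpc were above background on all 6 arrays.

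Levels below are log2 intensities relative to the array's 75th percentile, which is 0. They describe each probe across arrays and are not comparable between probes. Differences are KO minus WT, tested with limma over all 19862 features, and a call needs an adjusted p (Benjamini-Hochberg, over all features) under 0.05. In tissue RNA of this kind, fewer cells of a type and less RNA per cell cannot be told apart.

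Eln, Fbn1, Mfap2, Mfap4 and Fbln1, which include the elastin core and the main fibrillin, differed between KO and WT lungs by at most 0.15 in either direction at the probe that represents each gene, while a second Fbn1 probe differed by 0.27. The largest differences among the members were those of Mfap5, Fbn2 and Loxl1. Fbn2 was 2.53-fold higher, Mfap5 2.41-fold lower and Loxl1 1.46-fold lower in KO lungs. The KO and WT values of these 3 genes did not overlap, and none of the 3 passed the threshold. By limma, 0 of 9 members were called, where 1.32% of all features were. At an unadjusted p under 0.05 there were 3 of 9 members, against 25.7% of all features. Groups that did not overlap were likewise found for 3 of 9 members and 31.3% of all features, so both counts are close to the background. Differences of at least 2-fold were found for 2 of 9 members and 3.41% of all features. The median difference was 0.0061 over the members and 0.0079 over all features.

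**Figure D1:**
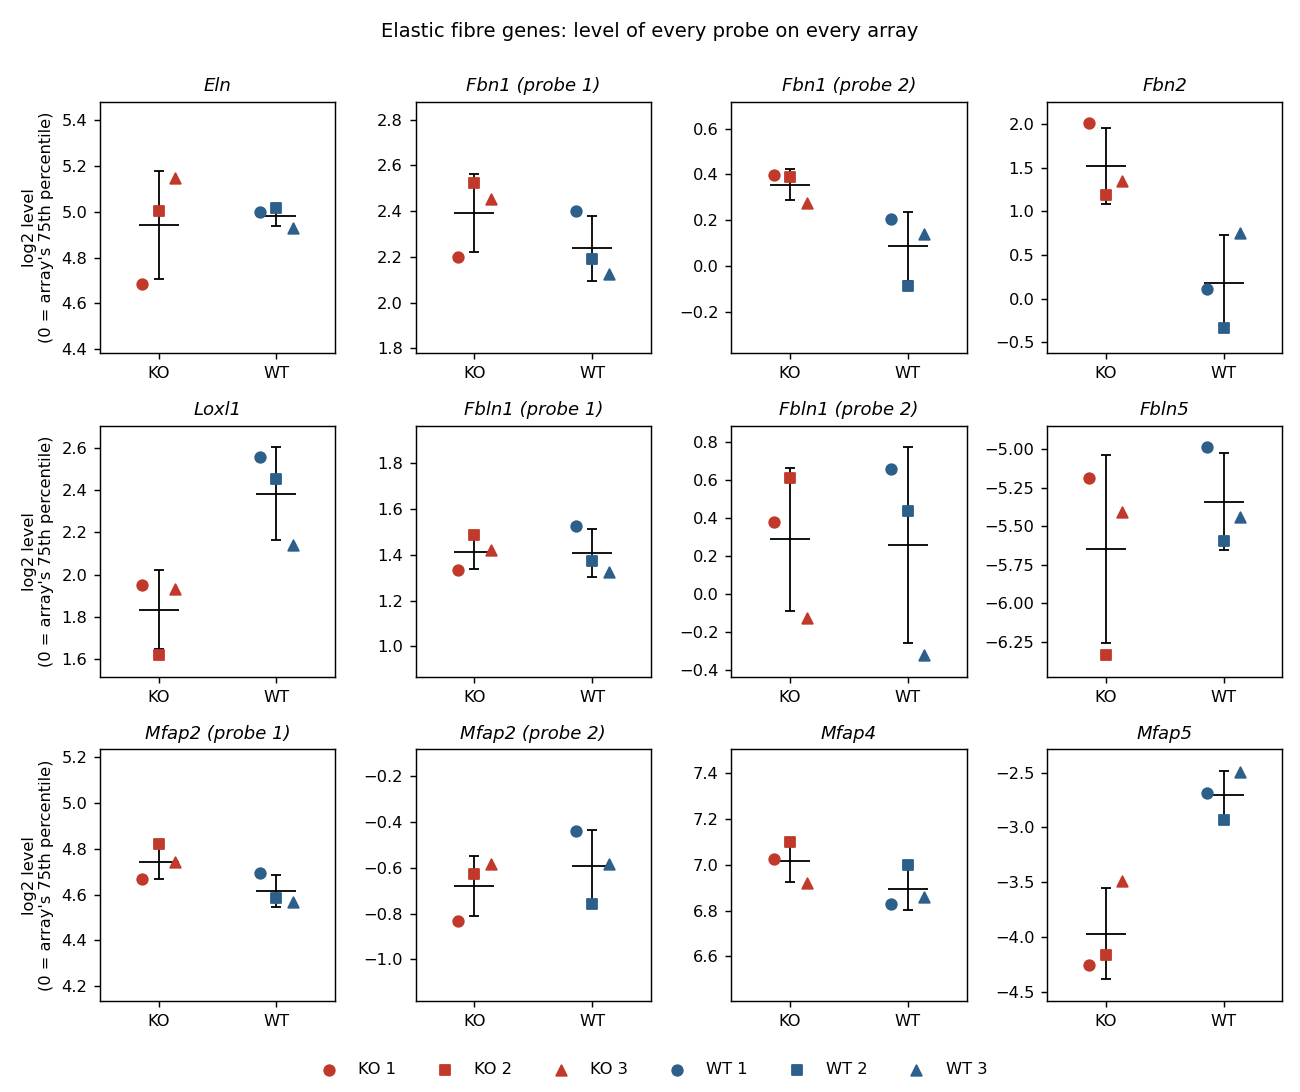
Log2 level of each of the 12 probes on each array, with KO lungs in red and WT lungs in blue, and the symbol marking the replicate; 0 is the array's 75th percentile, horizontal lines are group means and bars are SDs (n = 3 each). The panels for Fbn2, Loxl1 and Mfap5, and for the second Fbn1 probe, show groups that do not overlap.

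Eln encodes tropoelastin, the soluble monomer of the elastic core. Its level was 4.68, 5.00 and 5.15 in KO lungs, against 5.00, 5.01 and 4.93 in WT lungs. The KO values spread on both sides of the WT values, with KO 1 the lowest of all 6. The means were 4.94 ± 0.24 in KO and 4.98 ± 0.05 in WT lungs (SD, n = 3 each), and the difference was -0.038 with a 95% confidence interval of -0.37 to 0.29 (limma adjusted p = 0.885). A change of more than 1.29-fold in either direction lies outside that interval.

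The fibrillins form the microfibril scaffold. Fbn1 encodes fibrillin-1, the main fibrillin of tissues after birth, and Fbn2 encodes fibrillin-2, known mainly from embryonic and fetal tissue. Fbn1 had levels of 2.20, 2.52 and 2.45 in KO lungs, against 2.40, 2.19 and 2.13 in WT lungs at its brighter probe. These groups overlapped, and the difference was 0.15 (standard error, SE, 0.13; limma adjusted p = 0.503). The second Fbn1 probe had levels of 0.40, 0.39 and 0.28 in KO lungs, against 0.20, -0.09 and 0.14 in WT lungs. Here all KO lungs lay above all WT lungs, with a difference of 0.27 (SE 0.12) that did not pass when every probe was tested singly (limma adjusted p = 0.212).

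Fbn2 had levels of 2.01, 1.18 and 1.35 in KO lungs, against 0.11, -0.34 and 0.76 in WT lungs. All KO lungs lay above all WT lungs, KO 1 was the highest, and WT 3 lay between the other WT lungs and the KO lungs. The means were 1.51 ± 0.43 in KO and 0.17 ± 0.55 in WT lungs (SD, n = 3 each). The difference was 1.34 (SE 0.32, 95% confidence interval 0.59 to 2.09) and missed the threshold (limma adjusted p = 0.0742). It ranked 1049 of 19862 features by p.

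The size of the Fbn2 difference depended on which WT lungs it was set against. KO 3 exceeded the mean of WT 1 and WT 2, on its own slide, by 1.47, and exceeded WT 3, with which it shares the number in the file name, by 0.60. With a term for WT 1 and WT 2, the lungs with Y-linked signal, the KO lungs are set against WT 3 alone, and the difference was 0.76. Without WT 3 it was 1.63 and passed (limma adjusted p = 0.0293). In that fit 1917 of 20054 features were called, against 262 of 19862 with all 6 arrays. It set KO lungs, all with Xist signal, against WT lungs that all had Y-linked signal, so genotype and sex cannot be told apart there.

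Of the microfibril-associated proteins, Mfap2 encodes a glycoprotein that binds fibrillins along most microfibrils. It had levels of 4.67, 4.82 and 4.74 in KO lungs, against 4.70, 4.59 and 4.57 in WT lungs. The groups overlapped through WT 1, and the difference was 0.13 (SE 0.10; limma adjusted p = 0.472). At the second Mfap2 probe the difference was -0.087 (SE 0.13), opposite in sign and likewise within the spread. Mfap4 encodes a fibrinogen-related protein that binds elastin and fibrillin. Its level was 7.02, 7.10 and 6.92 in KO lungs, against 6.83, 7.00 and 6.86 in WT lungs. These ranges overlapped, with a difference of 0.12 (SE 0.11; limma adjusted p = 0.519).

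Mfap5 encodes the glycoprotein most similar to that of Mfap2, which also binds fibrillins and is known to bind Notch pathway proteins. Its level was -4.25, -4.17 and -3.49 in KO lungs, against -2.68, -2.93 and -2.50 in WT lungs. All KO lungs lay below all WT lungs, and KO 3 was the nearest to WT. The means were -3.97 ± 0.42 in KO and -2.70 ± 0.22 in WT lungs (SD, n = 3 each), and the difference was -1.27 (SE 0.22, 95% confidence interval -1.80 to -0.74). It had the smallest p of the members, rank 286 of 19862, and just missed the threshold (limma adjusted p = 0.0513). The Mfap5 signal was dim, with intensities of 84.9, 90.3 and 149.8 on KO arrays, against 259.8, 199.8 and 286 on WT arrays. The lowest intensity called well above background was 13.95 to 29.3 on KO arrays and 17.1 to 18.1 on WT arrays.

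Mfap5 kept its sign on the slide and number comparisons that the arrays allow, which all rest on KO 3 as the only KO lung. KO 3 was lower by 0.69 than the mean of WT 1 and WT 2 on the same slide and by 1.00 than WT 3. With the slide as a block the difference was the same -0.69, since only the slide of KO 3 held both genotypes. With a term for WT 1 and WT 2, which sets the KO lungs against WT 3 alone, it was -1.47. The gene passed the threshold in 7 of 21 alternative fits, with adjusted p-values between 0.0175 and 0.468. Without KO 3, when 448 of 19969 features were called, the difference was -1.51 (limma adjusted p = 0.0175). Without WT 3, where genotype and sex cannot be told apart, it was -1.17 (limma adjusted p = 0.0453).

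Loxl1 encodes a lysyl oxidase that cross-links elastin and is held at the fibre by fibulin-5. Its level was 1.95, 1.62 and 1.93 in KO lungs, against 2.56, 2.45 and 2.14 in WT lungs. All KO lungs lay below all WT lungs, and WT 3 was the WT lung nearest to them. The means were 1.83 ± 0.19 in KO and 2.38 ± 0.22 in WT lungs (SD, n = 3 each). By p, Loxl1 ranked 1930 of 19862 features. The difference was -0.55 (SE 0.16, 95% confidence interval -0.92 to -0.18; limma adjusted p = 0.0975). It was -0.57 between KO 3 and WT 1 and 2 on the same slide, and -0.21 between KO 3 and WT 3. With a term for WT 1 and WT 2, which sets the KO lungs against WT 3 alone, it was -0.31. Without WT 3, where genotype and sex cannot be told apart, it was -0.67 and passed (adjusted p = 0.0462).

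The KO and WT values of the fibulin members Fbln5 and Fbln1 overlapped. Fbln5 encodes fibulin-5, which binds elastin and integrins and is needed in mice for elastic fibre assembly. Its level was -5.19, -6.34 and -5.41 in KO lungs, against -4.99, -5.59 and -5.44 in WT lungs. KO 2 was the lowest, and the other 2 KO lungs lay within the WT range. The difference was -0.31 (SE 0.31; limma adjusted p = 0.568). Its intensities, 20.1 to 44.4 on KO arrays and 31.5 to 52.5 on WT arrays, were close to the lowest called well above background, so this probe limits what can be seen of Fbln5.

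Fbln1 encodes fibulin-1, found in elastic fibres and basement membranes. At its brighter probe the level was 1.34, 1.49 and 1.42 in KO lungs, against 1.53, 1.37 and 1.33 in WT lungs. The ranges overlapped almost fully, with a difference of 0.0061 and a 95% confidence interval of -0.25 to 0.26 (limma adjusted p = 0.977). The second Fbln1 probe varied more between lungs of 1 genotype, with 0.38, 0.61 and -0.13 in KO lungs, against 0.66, 0.44 and -0.32 in WT lungs. At that probe KO 3 and WT 3 were the lowest of their groups, and the difference was 0.030 (SE 0.29).

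**Figure D2:**
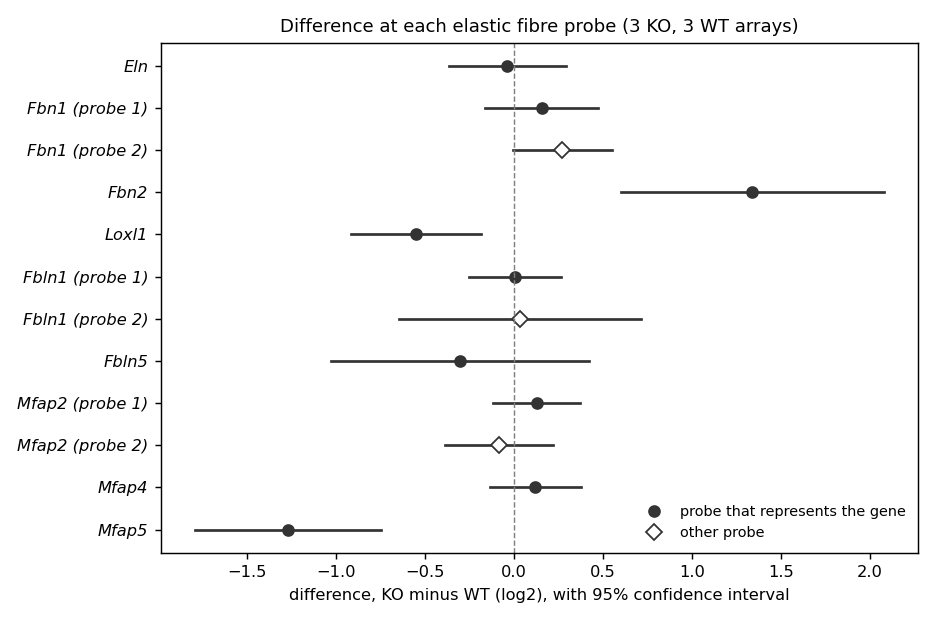
Difference (KO minus WT, log2) at each of the 12 probes with its 95% confidence interval, from the limma fit over all probes; filled points are the probes that represent a gene. The intervals of Fbn2, Loxl1 and Mfap5 leave out 0 and those of the other 9 probes include it.

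Closely related genes were also set against each other within each array. The log2 ratio of the Fbn2 probe to the Fbn1 probe on the same array, set to a mean of 0 over WT lungs, was 1.87, 0.72 and 0.96 in KO lungs, against -0.23, -0.46 and 0.69 in WT lungs. The KO and WT ratios did not overlap, though KO 2 and WT 3 lay close together. The ratio of Mfap5 to Mfap2 was -1.60, -1.67 and -0.92 in KO lungs, against -0.06, -0.19 and 0.25 in WT lungs. All KO ratios lay below all WT ratios, and the gap was wider than for the fibrillins. The exact permutation test (two-sided) gave p = 0.1 for either pair, the smallest value that 3 against 3 lungs allow. The ratio of Fbln5 to Fbln1 differed by -0.31, with overlapping groups (exact permutation p = 0.6). Adjusted over the 3 pairs, the p-values were 0.15, 0.15 and 0.6. The pairs were formed after the values had been seen. Fbn1 and Mfap2 differed little (0.15 and 0.13), so their ratios largely restate the Fbn2 and Mfap5 differences and are not a separate result.

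**Figure D3:**
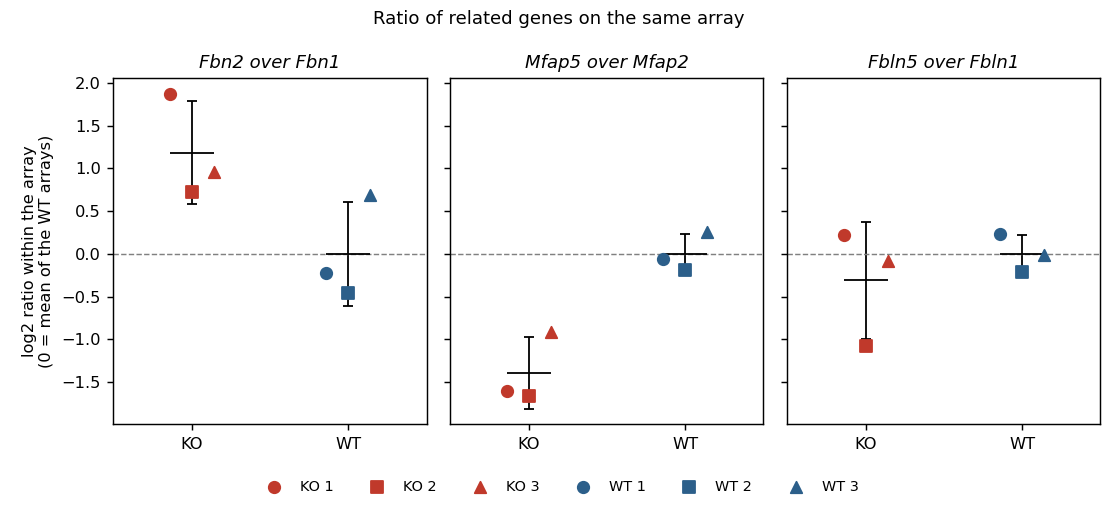
Log2 ratio between related genes on each array, with the mean of the WT arrays set to 0; KO lungs are red, WT lungs blue, lines are means and bars SDs (n = 3 each). Mfap5 over Mfap2 is below the WT ratios on all KO arrays, and Fbn2 over Fbn1 is above them.

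A further 52 genes were listed, and 46 of them entered the test. They were grouped by name or known role: assembly and microfibril-associated, cross-linking, receptors, growth factors, and elastases with their inhibitors. Not every listed gene is an established part of the fibre. By limma 0 of 46 were called, where 1.32% of all features were. Of the 46 differences 29 were positive and 17 negative, with a median of 0.08. Over all features 10125 of 19862 were positive, the share to set beside the sign counts here and in the groups below. Small differences can change sign with the scaling: median scaling moved the median of all features to -0.12. At an unadjusted p under 0.05, 2 of the 46 genes were higher and 1 lower in KO lungs, against 15.4% of all features that were higher and 10.3% lower. Groups did not overlap for 6 genes higher in KO lungs and 2 lower, where the shares of all features were 17% and 14.3%. Loxl4, Mmp12 and Elane were below background on all 6 arrays, and Adamts17, Tll1 and Serpina1a had no probe named through RefSeq.

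In the assembly and microfibril-associated group 16 of 22 differences were positive, against 10125 of 19862 over all features, and 0 genes were called. Fbln7, a fibulin known from cell adhesion, had levels of -1.36, -1.89 and -1.90 in KO lungs, against -2.85, -3.34 and -2.38 in WT lungs. Its KO values were all above its WT values, with a difference of 1.14 (SE 0.26; limma adjusted p = 0.0701). Vcan, a large proteoglycan that binds hyaluronan and fibrillin, had -1.74, -2.38 and -2.24 in KO lungs, against -3.38, -3.56 and -2.60 in WT lungs. Its groups did not overlap either, with WT 3 the closest to the KO lungs, and its difference was 1.06 (SE 0.28; limma adjusted p = 0.0871). Fn1, the fibronectin on which microfibrils assemble, differed by -0.27 (SE 0.12), and by -0.13 and -0.26 at its other probes, and did not pass. Without WT 3, where genotype and sex cannot be told apart, Fbln7 (1.38) and Vcan (1.35) were called.

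In the other groups 0 genes were called. The 5 cross-linking genes tested, among them further lysyl oxidases and the copper transporter Atp7a, ran from -0.073 to 0.34, with 4 of 5 positive. Integrins and the other receptors ran from -0.26 to 0.30, and the growth factors and the receptor Pdgfra from -0.31 to 0.35. These ranges are for the probe that represents each gene. Second probes gave larger values for Itgb1 (0.67, against 0.16), Pdgfra (0.81, against 0.35) and Glb1 (0.45, against 0.30). With every probe tested singly their limma adjusted p-values were 0.0583, 0.0813 and 0.177, so none was called. These second probes were named after their values were seen. Elastases and their inhibitors ran from -0.83 to 0.16 at the representing probes, and 5 of 8 differences were negative. Second probes gave 0.20 for Mmp14 (against -0.24), 0.22 for Timp1 (against 0.014) and -0.50 for Mmp9 (against -0.59). The smallest p among the elastases and inhibitors belonged to Ctss, an elastin-degrading cathepsin of macrophages. Its levels were 3.16, 3.18 and 3.49 in KO lungs, against 4.01, 3.84 and 3.54 in WT lungs. The groups did not overlap, though KO 3 and WT 3 were almost level, and the difference was -0.52 (SE 0.16; limma adjusted p = 0.111).

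**Figure D4:**
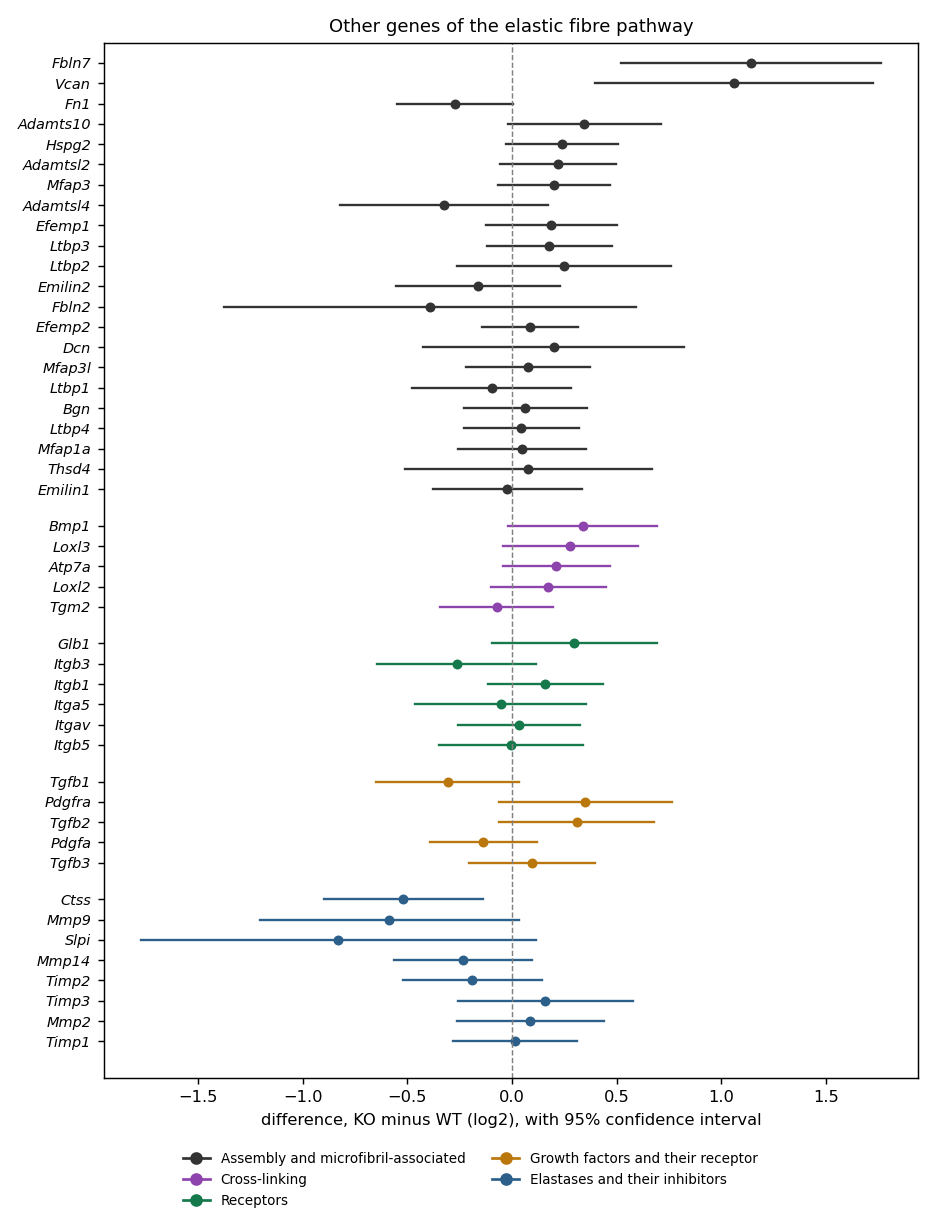
Difference (KO minus WT, log2) with its 95% confidence interval for the 46 other genes of the pathway that were tested, by group. The intervals of Fbln7, Vcan and Ctss leave out 0, and no gene passed the adjusted threshold.

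Markers of fibroblasts, myofibroblasts and smooth muscle had 0 calls, where 1.32% of all features were called, and their summed levels overlapped between the groups. A summed level adds probes that are not comparable with each other, so the brightest markers weigh most. In the fibroblast list these were Plin2 and Tcf21 (5.31 and 4.93 on KO 3), against 2.56 for Pdgfra. The overlap of sums therefore says little about dimmer markers. Of 8 markers of lung fibroblasts and alveolar myofibroblasts 0 were called, and their summed log2 level was 6.31 to 6.68 in KO lungs and 6.36 to 6.72 in WT lungs. Of these, 1 marker was higher and 1 lower in KO lungs without overlap of the groups, where the shares of all features were 17% and 14.3%. Of 7 smooth muscle markers 0 were called, with summed levels of 5.22 to 6.07 in KO lungs and 5.63 to 6.06 in WT lungs, and 1 was higher in KO lungs without overlap. Heart markers differed: 5 of 8 were called lower in KO lungs, against 0.604% of all features. The summed level of the heart markers was 3.15 to 3.48 in KO lungs, against 4.59 to 4.69 in WT lungs. The 6 proliferation markers had summed levels of 4.52 to 4.89 in KO lungs, against 3.50, 3.43 and 4.58 in WT 1, 2 and 3, and 0 were called. All 6 differences were positive, and 5 markers were higher at an unadjusted limma p under 0.05, against 15.4% of all features. For 0 of the 6 proliferation markers were the groups without overlap. All 6 of these, and all 8 heart, 8 fibroblast and 7 smooth muscle markers, passed the background filter. The part that heart tissue or the share of dividing cells has in the values of Mfap5, Fbn2, Loxl1, Fbln7 and Vcan was not tested.

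Among all features with a symbol, those whose levels across the 6 arrays followed Mfap5 most closely were Insm1, Vil1, Dppa2, Cd200 and Cblif. Likeness was the root mean square difference between log2 levels, each centred on its own mean over the arrays, and it ran from 0.154 for Insm1 to 0.188 for Cblif. Dppa2, the targeted gene, was the third nearest at 0.18. Cd200, a membrane glycoprotein gene on the same chromosome as Dppa2, fell by 1.20 (SE 0.18; limma adjusted p = 0.0357). The signal of Insm1, a zinc finger factor of neuroendocrine cells, was not well above background on any KO array, so its KO values have no order and its likeness rests in part on background signal. In the other 4, as in Mfap5, KO and WT lungs did not overlap and KO 3 was the KO lung nearest to WT. These shared traits are largely set by choosing the features for likeness to Mfap5, and are not a separate result.

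Over the whole array 262 of 19862 features were called, 142 higher (0.715%) and 120 lower (0.604%) in KO lungs. Other scalings shifted that balance. Quantile normalization gave 56 higher and 133 lower calls, median scaling 89 higher and 218 lower, and the log2 values the authors deposited 60 higher and 137 lower. The signs of the Fbn2, Mfap5 and Loxl1 differences did not change under any of the 23 alternatives, which draw on the same 6 arrays or some of them, and the size of each varied with them. The Fbn2 difference ranged from 0.60 to 1.63, that of Mfap5 from -1.51 to -0.69, and that of Loxl1 from -0.68 to -0.21. Calls among these were few: 2 of 21 alternative fits for Fbn2, 7 of 21 for Mfap5 and 1 of 21 for Loxl1.

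**Figure D5:**
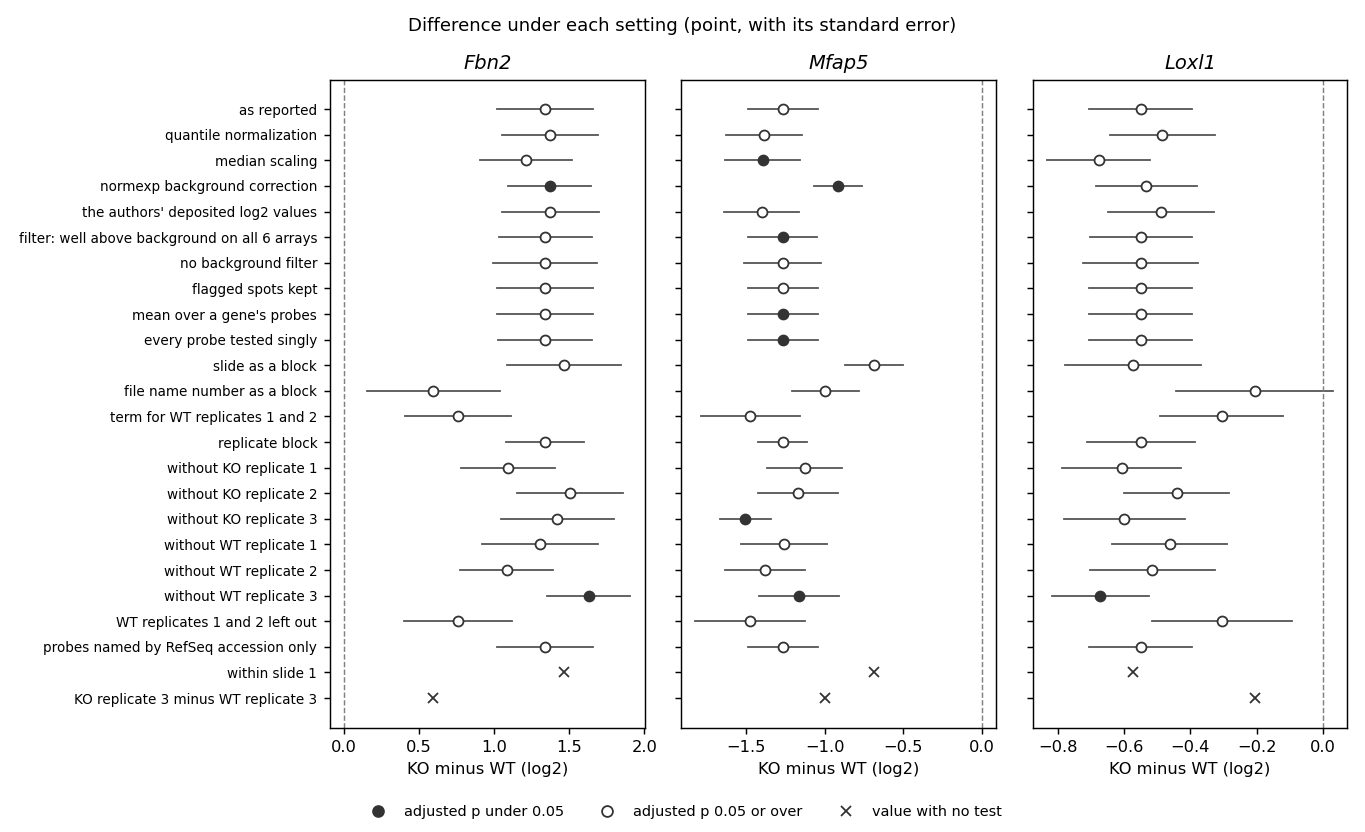
Difference (KO minus WT, log2) of Fbn2, Mfap5 and Loxl1 as reported and under each of 23 alternatives, with its SE where there is a test; filled points have an adjusted p under 0.05 and crosses have no test. Points stay on 1 side of 0 in each panel, and most are open.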

How the data were processed

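Cy3-labelled lung RNA was hybridised to 1-colour Agilent mouse arrays. Per the file headers, Agilent Feature Extraction 10.7.3.1 quantified them and the array design refers to mm9. The deposited scanner intensity is background-corrected and spatially detrended, and arrays were not scaled to each other. The authors also deposited log2 values. These were within 0.000364 (median absolute difference per array) of quantile-normalized log2 intensities relative to the WT median, with column medians of 0 for WT 1 to 3 and 0.0108, -0.0070 and -0.00088 for KO 1 to 3.

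From log2 intensities each array's 75th percentile was subtracted, outlier spots were left out and spots of a probe averaged. A probe was kept if every array of a group, KO or WT, had it well above background (26668), and the probe with the highest mean represented each gene. RefSeq (GRCm38.p6) accessions and synonyms named 26713 of 41174 probes, and no coordinates are used because the build differs. KO and WT were set against each other in limma (3.58.1; R 4.3.3) by moderated two-sided tests from lmFit and eBayes, without covariates and with Benjamini-Hochberg adjustment over all features. The limma step was tested on simulated data. The 3 arrays per group limit the precision.

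Members, gene lists and tests were chosen with earlier results of these data known. The text names all members, the 4 other pathway genes of smallest p, and the 5 features closest in profile to the member of smallest p. Marker lists cover lung epithelium, fibroblasts, smooth muscle, endothelium, mesothelium, cartilage, heart and proliferation. Alternatives changed the scaling, background correction, filter, probe rule, batch terms and arrays used.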

Additional observations from a re-analysis of the deposited data

How the results depend on the processing

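Of 9 members 0 were called as reported. The count was 1 with median scaling, with probes above background on all 6 arrays, with the mean over a gene's probes and with every probe tested singly, each time Mfap5. It was 2 (Mfap5 and Fbn2) with normexp on the median spot signal, and 0 to 3 when 1 array was left out, with 1 (Mfap5) without KO 3 and 3 (also Loxl1) without WT 3, where 1917 of 20054 features were called, against 262 of 19862 as reported. In the fit without WT 3, genotype and sex cannot be told apart. Normexp on the mean spot signal was not run, since the scanner tables used here give the median. Of the other pathway genes 1 (Fbln7) was called with normexp, and 0 to 2 when 1 array was left out.

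Over the whole array the 262 calls became 28 with no background filter, 24 with the slide as a block, 4 with a block for the number in the file name, 26 with a term for WT 1 and WT 2, and 57 with the replicate number as a block. They became 0 with WT 1 and WT 2 left out (limma; 1459 at an unadjusted p under 0.05), an alternative chosen after seeing the data, as were normexp on the median signal and naming by accession only. Leaving out 1 array gave 36 to 1917 calls: 95, 89 and 448 without KO 1, 2 and 3, and 36, 67 and 1917 without WT 1, 2 and 3. The slide and file number blocks rest on KO 3 as the only KO lung compared. The term for WT 1 and WT 2, like leaving both out, rests on WT 3 as the only WT lung.

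The members' median difference of 0.0061 became -0.12 with median scaling, which moved the median of all features to -0.12, and 0.095 with a block for that number and between KO 3 and WT 3. It ran from -0.035 to 0.092 without 1 array. Differences near 0 changed sign. Eln was 0.010 with the authors' values, 0.14 with the slide as a block, 0.22 with the file number block, 0.013 with the term for WT 1 and WT 2 or without both, and -0.14 to 0.092 without 1 array. Fbln1 was -0.12 with median scaling, -0.029 with the slide as a block, and -0.035 to 0.065 without 1 array. Fbln5 was 0.029 with the file number block and -0.53 to 0.041 without 1 array. With median scaling Mfap2 was -0.0011 and Mfap4 -0.0086. The cause of these changes was not tested.

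Lungs with the same replicate number did not deviate together (correlations of -0.02, 0.04 and 0.03 for numbers 1, 2 and 3). With 3 lungs per group this cannot settle whether the numbers pair the lungs. KO 3 and WT 3, which also share the file name number, were close (SD of log2 differences over features 0.386). That SD was 0.407 to 0.412 between KO lungs, 0.424 and 0.421 between WT 3 and WT 1 or 2, and 0.302 between WT 1 and WT 2. The cause was not tested. With the replicate block 0 members and 0 other pathway genes were called, and the members' median difference was 0.0061.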

Other observations

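Of 4 cartilage markers tested, which a dissection that includes the large airways would hold, 1 was called, where 1.32% of all features were. Col9a1, a collagen of cartilage fibrils, had log2 levels of -2.72, -4.13 and -3.57 in KO lungs, against -5.56, -5.68 and -4.62 in WT lungs, with a difference of 1.81 (SE 0.41; limma adjusted p = 0.0673). Col2a1, the main cartilage collagen, had -0.23, 0.29 and -0.36 in KO lungs, against -0.84, -0.70 and -1.06 in WT lungs, with a difference of 0.76 (SE 0.19; adjusted p = 0.0818). The groups did not overlap for either gene, with KO lungs higher, as was so for 17% of all features. Acan, the cartilage proteoglycan aggrecan, was the 1 called, and it passed the background filter through WT arrays only. Its probe was not well above background in KO lungs, where it was at least 1.16-fold lower. Its limma adjusted p of 0.0438 therefore rests on KO values at background level and lends no support to the call. Sox9 differed by -0.062. Matn1 and Cnmd did not pass the background filter, so 4 of 6 markers were tested. Their summed level was 0.87 to 1.11 in KO lungs, against 0.45 to 0.80 in WT lungs.

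Endothelial, mesothelial and lung epithelial markers had 0 calls among 6, 5 and 8 tested genes, with median differences of 0.13, -0.20 and -0.17. With 1.32% of all features called, lists this short would seldom hold a call. All 5 mesothelial differences were negative, as were 9737 of 19862 over all features.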
